A study of Mus musculus with 6 samples.

Results

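The 10 genes described here, Gas5, Snhg1, Snhg3, Snhg4, Snhg5, Snhg6, Snhg8, Snhg12, Snhg15 and Snhg20, are long non-coding host genes of small nucleolar RNAs (snoRNAs). They were taken by symbol from the 54532 genes of the count table, and each symbol matched 1 gene. Naive CD4+ T cells had been taken from spleens of C57BL/6 mice and were cultured for 72 h with CD3/CD28 beads, IL-2 and antibodies against interferon-gamma and IL-4. In 3 cultures neutrophil extracellular traps (NETs), webs of DNA and granule proteins that neutrophils release, were added, and 3 cultures received vehicle. The labels give neither the source and dose of the NETs nor whether replicates came from separate animals, so each p-value reflects only how much these libraries vary, which may be technical.

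A snoRNA host gene is transcribed and spliced like an mRNA, and its introns, not its exons, carry the conserved product. The intron is trimmed to a snoRNA, which pairs with ribosomal RNA and guides ribose methylation (box C/D snoRNAs) or pseudouridylation (box H/ACA snoRNAs) by the proteins bound to it. Many host transcripts begin with a terminal oligopyrimidine (TOP) tract, as ribosomal protein mRNAs do, so that their translation follows mTOR signalling, and their translated exons are removed by nonsense-mediated decay. Gas5 was first found as a transcript that accumulates in growth-arrested mouse cells, and in dividing lymphocytes its spliced RNA is known to be short-lived.

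The count table holds 33 snoRNA or scaRNA entries that lie inside the 10 host genes on the same strand. There are 10 in Gas5, 8 in Snhg1, 5 in Snhg12, 2 each in Snhg3, Snhg4 and Snhg5, and 1 each in Snhg6, Snhg8, Snhg15 and Snhg20. Snord80 in Gas5 and Snora16a in Snhg12 each stand as 2 overlapping entries. In GENCODE M21 (build GRCm38) all 31 entries outside Snhg4, which was not analysed here for structure or sequence, lay in an intron of at least 1 transcript without a retained intron. In the transcript with most exons among these, 9 of the 11 introns of Gas5, 8 of the 9 introns of Snhg1 and all 4 introns of Snhg12 held an entry. For the 9 host genes compared with GENCODE, the annotated and the deposited coordinates were equal. Snhg4 was not compared.

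**Figure D1:**
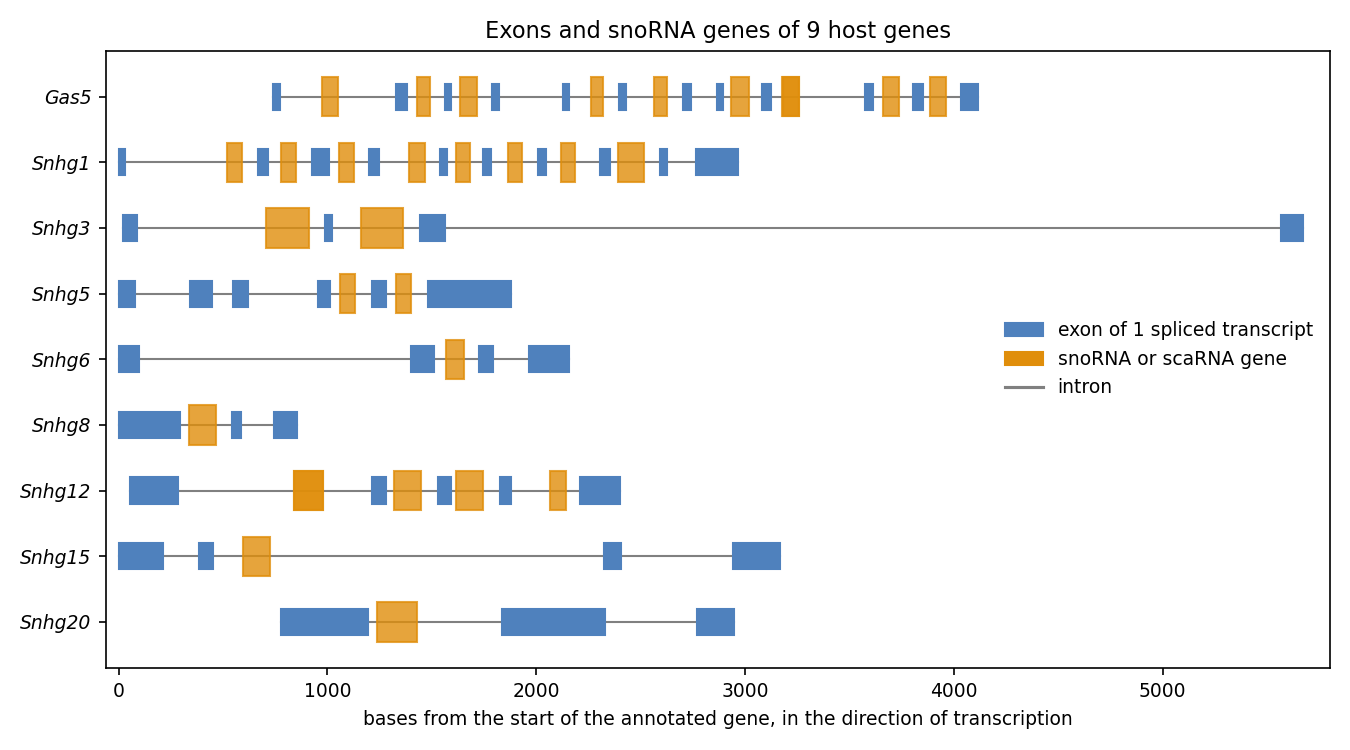
Exons (blue) of the spliced transcript with most exons and the snoRNA or scaRNA entries (orange) of 9 host genes, drawn to scale; the x axis gives bases from the start of the annotated gene. Gas5 and Snhg1 alternate short exons with introns that hold a snoRNA, while Snhg6, Snhg8, Snhg15 and Snhg20 hold 1 entry each.

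The sequences of 6 of these snoRNAs, from GENCODE M21 in build GRCm38, are shown because they are the products that the introns of the host genes carry. In the box C/D snoRNAs the capitals mark the first C box core (TGATGA) and the last D box (CTGA). In the box H/ACA snoRNAs they mark the ACA that ends 3 bases before the end of the RNA. Snord47 comes from Gas5 (chr1:161038082-161038158, plus strand), Snord50a (chr9:88521529-88521600) and Snord50b (chr9:88521797-88521868) from the minus strand at Snhg5 and Snord87 from Snhg6 (chr1:9942463-9942549, minus strand). Snora24 comes from Snhg8 (chr3:123507937-123508066, minus strand) and Snora9 from Snhg15 (chr11:6528033-6528165, minus strand).
Snord47: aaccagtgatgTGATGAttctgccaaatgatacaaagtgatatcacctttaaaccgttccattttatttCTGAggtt
Snord50a: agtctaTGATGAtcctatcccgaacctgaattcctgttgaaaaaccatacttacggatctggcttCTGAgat
Snord50b: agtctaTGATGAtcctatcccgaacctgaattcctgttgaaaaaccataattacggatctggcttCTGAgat
Snord87: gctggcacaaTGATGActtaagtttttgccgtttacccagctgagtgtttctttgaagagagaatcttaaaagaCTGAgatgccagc
Snora24: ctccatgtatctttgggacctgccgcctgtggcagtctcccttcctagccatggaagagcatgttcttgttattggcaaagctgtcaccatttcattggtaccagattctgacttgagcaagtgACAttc
Snora9: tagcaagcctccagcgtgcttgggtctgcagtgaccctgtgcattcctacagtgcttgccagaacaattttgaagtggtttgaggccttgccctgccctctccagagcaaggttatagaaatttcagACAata
The 2 snoRNAs of Snhg5 differed at 1 of 72 positions, C50A counted from the first base of Snord50a. Of the 31 matched entries, 7 of the 9 with a Snord symbol and 11 of the 14 with neither a Snord nor a Snora symbol held both boxes as searched. Both boxes were found in 8 of the 10 entries of Gas5 and 6 of the 8 of Snhg1. The ACA stood 3 bases from the end in 7 of the 8 Snora entries. A missing match says only that these letters were not found at the positions searched.

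These libraries hold almost no reads assigned to the snoRNAs themselves. Of the 33 entries, 32 had 0 reads in all 6 libraries, which allows up to 3 counts per library if the counting left out no reads. Snord87 had 1 read in NETs replicate 2 and 1 read in vehicle replicate 3. Of the 31 located entries, 29 also overlapped an exon of another annotated transcript of the host, and Snord87 was not among these. Whether the counting left out such shared reads was not tested. Across the table, 206 of 1507 snoRNA genes had a read. The snoRNA output of the host genes could thus not be compared between NETs and vehicle.

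The starts of the host genes are shown next so that the letters at which a TOP tract would begin can be read. The RefSeq promoter table (GRCm38.p6) held 9 starts for 8 host genes and none for Snhg6. Snhg4 was not searched for in it. Each line gives the 50 bases before and the 30 bases from the annotated start, on the strand of the gene, with the longest unbroken run of C and T that covers the start or begins within 5 bases of it in capitals. The windows are chr1:161035116-161035195 (plus strand) for the second start of Gas5, chr19:8723437-8723516 (plus strand) for Snhg1, chr3:123508307-123508386 (minus strand) for Snhg8, chr4:132308628-132308707 (plus strand) for Snhg12 and chr9:88522868-88522947 (minus strand) for Snhg5.
Gas5: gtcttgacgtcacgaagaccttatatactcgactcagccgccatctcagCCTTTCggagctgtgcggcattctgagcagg
Snhg1: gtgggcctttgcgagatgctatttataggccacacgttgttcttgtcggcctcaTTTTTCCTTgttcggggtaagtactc
Snhg8: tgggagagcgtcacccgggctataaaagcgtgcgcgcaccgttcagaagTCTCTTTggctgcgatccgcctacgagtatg
Snhg12: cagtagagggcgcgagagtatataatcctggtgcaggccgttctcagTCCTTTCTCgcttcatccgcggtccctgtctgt
Snhg5: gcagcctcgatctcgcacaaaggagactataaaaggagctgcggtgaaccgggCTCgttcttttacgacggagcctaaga
The run was 9 bases long in Snhg1 and in Snhg12, 7 in Snhg8, 6 at the second start of Gas5, 5 in Snhg3, 4 in Snhg15, 3 in Snhg5 and at the first start of Gas5, and 2 in Snhg20. Of the 9 starts, 5 had a run of at least 5 bases, against 23.6% of all 32851 promoters. The runs of Snhg1 and Snhg3 began at base 5 and base 3 from the start, so they did not cover the start itself. Those at the second start of Gas5 and in Snhg8 and Snhg12 covered it. A run of 9 or more was found in 4.59% of all promoters. In the window from 250 bases before to 50 after the start, TATAAA was found on either strand at 4 of the 9 starts (13.6% of all promoters), namely in Snhg1, Snhg3, Snhg5 and Snhg8. CCAAT was found at 3 (37.4%), the ETS letters CCGGAAG at 2 (8.86%) and the E-box CACGTG at 1 (7.15%), that of Snhg15. These are matches of letters, not measured sites, and another annotated start could give another run.

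Total counts per library ranged from 17148910 to 18394828 with NETs and from 15657622 to 18655997 with vehicle. Among the 13900 genes tested, the quasi-likelihood test of edgeR gave 0 with a Benjamini-Hochberg adjusted p under 0.05 and 1776 with an unadjusted p under 0.05. The count at an unadjusted p was 869 without NETs replicate 1 and 2942 without vehicle replicate 3, and the shares of all genes given below rest on the fit with all 6 libraries. DESeq2 called 145 genes, limma-voom 1, and edgeR 405 without vehicle replicate 3. T cell markers were abundant in every library (summed level of 7 genes 4150 to 4231 CPM with NETs and 4082 to 4351 CPM with vehicle, where CPM is the count scaled to a library total of 1e6). Markers of neutrophils were near 0 (10 genes, together 4.60 to 5.98 CPM with NETs and 2.47 to 3.58 CPM with vehicle). S100a9 averaged 1.13 ± 0.188 CPM with NETs and had 0 reads with vehicle (edgeR adjusted p = 0.170). Of the myeloid markers 5 of 5 were tested, together 39.3 to 52.0 CPM with NETs and 29.8 to 39.4 CPM with vehicle. Among them 4 had a log2 fold change above 0. Most of the sum was Lyz2, at 36.0 ± 4.56 CPM with NETs and 23.5 ± 5.77 CPM with vehicle (edgeR adjusted p = 0.223). The part of either in the values below was not tested.

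On the per-length FPKM scale that the authors deposited, Gas5 was the most abundant of the 10 host RNAs. It averaged 161 ± 18.7 FPKM with NETs and 173 ± 19.5 FPKM with vehicle (SD, n = 3 each), and its lowest library (140 FPKM) lay above the highest of any other host gene. Snhg1 followed with 53.6 to 72.6 FPKM over the 6 libraries, then Snhg6 with 43.2 to 54.3, Snhg5 with 29.4 to 47.1 and Snhg15 with 31.7 to 40.1. The ranges of each of these neighbours in the order overlapped. Snhg8 came next with 16.7 to 25.1 FPKM, wholly below Snhg15, and overlapped Snhg12 (11.8 to 18.4), which in turn overlapped Snhg20 (11.9 to 15.1). Snhg4 lay apart at 5.08 to 6.37 FPKM, and Snhg3 was lowest at 0 to 1.45 FPKM. The length that these FPKM values were divided by was shorter than the deposited gene length for all 10, for example 741 against 3760 bases for Gas5, so the order depends on the authors' choice of length.

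Together the 10 host RNAs took 274, 310 and 301 CPM in NETs replicates 1 to 3 and 301, 333 and 284 CPM in vehicle replicates 1 to 3. The sum averaged 295 ± 18.6 CPM with NETs and 306 ± 25.0 CPM with vehicle (SD, n = 3 each), a ratio of 0.964, and the groups overlapped. Gas5 alone made up 37.9%, 39.3% and 43.6% of the host counts with NETs and 41.6%, 43.2% and 40.7% with vehicle. The summed host RNA level thus differed by less than the spread between replicates. In bulk RNA, fewer cells of a type and less RNA per cell cannot be told apart.

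**Figure D2:**
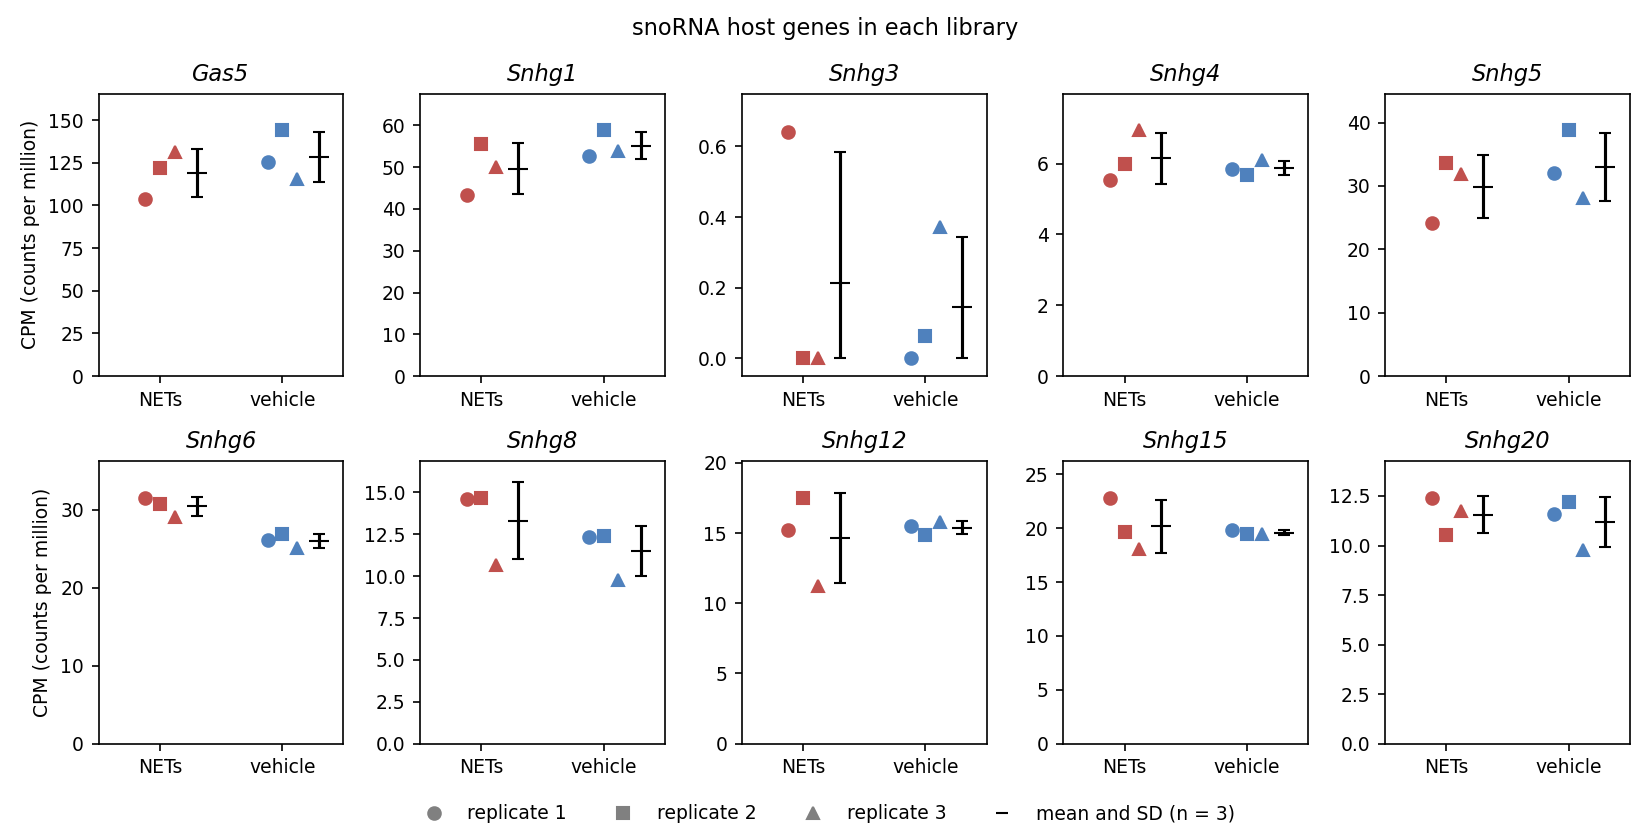
CPM of each host gene (y axis, from 0 except for Snhg3, with its own scale per panel) in the 3 NETs and 3 vehicle libraries; black bars give the mean and SD (n = 3), cut at 0 for Snhg3. Snhg6 is the one gene whose NETs libraries (29.1 to 31.5 CPM) all lie above the vehicle libraries (25.1 to 26.9 CPM).

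Of the 10 host genes, 9 passed the filter on low counts and were tested, and 0 were called at an adjusted p of 0.05 by edgeR (0% of all genes tested) or by limma. DESeq2 gave an adjusted p for 4 of the 9 (Gas5, Snhg1, Snhg5 and Snhg6), none of them under 0.05, and none for the other 5. At an unadjusted p under 0.05 edgeR also gave 0 of the 9, where 12.8% of all genes tested had one (6.72% higher with NETs and 6.06% lower). Of the 9 log2 fold changes, 5 lay above 0 (50.2% of all genes tested) and 4 below, between −0.14 and 0.24, with a median of 0.05 against 0.0012 over all genes tested. The groups did not overlap in 1 of the 9 genes, Snhg6, where 16.7% of all genes tested had groups apart (7.68% with NETs above vehicle and 9.04% below).

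Among the hosts of box C/D snoRNAs, Gas5 (ENSMUSG00000053332; chromosome 1, 161034422 to 161038539) had 104, 122 and 131 CPM in the NETs libraries and 125, 144 and 116 CPM in the vehicle libraries. NETs replicate 1 was lowest and vehicle replicate 2 highest, and the groups overlapped. The log2 fold change was −0.10 (SE 0.11; 95% interval −0.33 to 0.13; edgeR adjusted p = 0.740), so that the interval runs from a 0.797-fold to a 1.10-fold level. Gas5 lies head to head with Zbtb37, a zinc finger gene on the other strand, and the genes overlap by 428 bases. Zbtb37 stood at 37.0 ± 2.73 CPM with NETs and 42.1 ± 5.56 CPM with vehicle (SD, n = 3 each; log2 fold change −0.17, SE 0.12). The strand use of the counting is not stated, so reads in that overlap cannot be told apart.

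Snhg1 (ENSMUSG00000108414; chromosome 19, 8723475 to 8726443), the host of Snord22 and 7 other snoRNAs, had 43.4, 55.6 and 49.9 CPM in the NETs libraries and 52.7, 58.8 and 53.8 CPM in the vehicle libraries. As for Gas5, NETs replicate 1 was lowest and vehicle replicate 2 highest. Its log2 fold change was −0.14 (SE 0.11; 95% interval −0.38 to 0.10; edgeR adjusted p = 0.622). Without NETs replicate 1 it was −0.050, without vehicle replicate 2 −0.082 and without NETs replicate 2 −0.22. Slc3a2, the heavy chain of amino acid transporters, starts 106 bases away on the other strand and averaged 64.1 ± 5.07 CPM with NETs and 67.7 ± 1.28 CPM with vehicle (log2 fold change −0.07, SE 0.09).

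Snhg5 (ENSMUSG00000097195; chromosome 9, 88521050 to 88522929), the host of the nearly identical Snord50a and Snord50b, repeated this order with 24.2, 33.7 and 31.8 CPM with NETs and 32.0, 38.8 and 28.2 CPM with vehicle. The log2 fold change was −0.13 (SE 0.15; 95% interval −0.46 to 0.20; edgeR adjusted p = 0.754). Its ratio to Gas5 within a library was 0.233, 0.276 and 0.243 with NETs and 0.255, 0.269 and 0.244 with vehicle, and these overlapped too.

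Snhg6 (ENSMUSG00000098234; chromosome 1, 9941959 to 9944118), which carries Snord87 and is listed as a lincRNA, had 31.5, 30.7 and 29.1 CPM in the NETs libraries and 26.1, 26.9 and 25.1 CPM in the vehicle libraries. Gas5, Snhg1 and Snhg5 had log2 fold changes below 0, with 95% intervals that included 0. In Snhg6 all 3 NETs libraries lay above all 3 vehicle libraries. The log2 fold change was 0.24 (SE 0.12; 95% interval −0.01 to 0.49), a 1.18-fold level, with an unadjusted p of 0.0623 and an edgeR adjusted p of 0.412, so that it was not called. Its p-value ranked 2103rd of 13900. Relative to Gas5 in the same library, a ratio free of scaling between libraries and chosen after its values were seen, Snhg6 stood at 0.303, 0.251 and 0.222 with NETs and 0.208, 0.187 and 0.217 with vehicle. These ratios use the same Snhg6 counts, so they are no separate test. They did not overlap, although NETs replicate 3 and vehicle replicate 3 nearly met. The ratios of Snhg1, Snhg5 and Snhg15 to Gas5 overlapped between the groups. Mcmdc2 overlaps its end by 127 bases on the other strand and had between 0 and 11 reads per library.

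Among the hosts of box H/ACA snoRNAs, Snhg8 (ENSMUSG00000104960; chromosome 3, 123507552 to 123508404) had 14.6, 14.7 and 10.7 CPM with NETs and 12.3, 12.4 and 9.76 CPM with vehicle. In both groups replicate 3 was the low one, and the groups overlapped. The log2 fold change was 0.22 (SE 0.19; 95% interval −0.17 to 0.62; edgeR adjusted p = 0.640), close in size to that of Snhg6 with a wider error. With 1 library left out it lay between 0.12 (without vehicle replicate 3) and 0.35 (without NETs replicate 3).

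Snhg15 (ENSMUSG00000085156; chromosome 11, 6525591 to 6528760), which holds Snora9, had 22.8, 19.6 and 18.1 CPM with NETs. The vehicle libraries lay close together at 19.8, 19.5 and 19.5 CPM, so that the NETs libraries fell on both sides of them. Its log2 fold change was 0.05 (SE 0.14; 95% interval −0.25 to 0.35; edgeR adjusted p = 0.905).

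Snhg4 (ENSMUSG00000097769; chromosome 18, 35553371 to 35558316), the host of Snora74a, had 95, 110 and 119 reads (5.53, 5.98 and 6.94 CPM) with NETs and 109, 89 and 98 reads (5.84, 5.68 and 6.09 CPM) with vehicle. The groups overlapped, and the log2 fold change was 0.08 (SE 0.22; 95% interval −0.40 to 0.55; edgeR adjusted p = 0.914). This was the widest interval of the 9 tested host genes. A gene on the same strand with a provisional symbol, Gm28285, overlaps Snhg4 by 4913 bases, with starts 33 bases apart. It had 4, 0 and 9 reads with NETs and 0, 0 and 1 read with vehicle. Whether reads that Snhg4 shares with Gm28285 were left out was not tested, so the level of Snhg4 is uncertain.

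Snhg3 (ENSMUSG00000085241; chromosome 4, 132348014 to 132353686), the host of Snora73a and Snora73b, was the one host gene left out by the filter on low counts. It had 11, 0 and 0 reads in NETs replicates 1 to 3 and 0, 1 and 6 reads in vehicle replicates 1 to 3, so 1 library of each group held most of the reads. It lies almost wholly within Rcc1 on the same strand, with 5592 shared bases and starts 81 bases apart, and Rcc1, the nucleotide exchange factor of the GTPase Ran, had 1242 to 1827 reads in each library. Rcc1 stood at 106, 86.4 and 99.4 CPM with NETs and 66.6, 79.5 and 89.8 CPM with vehicle (log2 fold change 0.32, SE 0.12; edgeR adjusted p = 0.281). Gm17300, a lincRNA on the other strand, overlaps Snhg3 by 1611 bases. It had 23, 19 and 12 reads with NETs and 26, 14 and 15 reads with vehicle. Whether reads of Snhg3 were left out or counted to Rcc1 or Gm17300 was not tested, and the values of Snhg3 are uncertain.

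Snhg12 (ENSMUSG00000086290; chromosome 4, 132308623 to 132311024) carries both kinds of snoRNA, with Snora16a, Snora44, Snora61 and Snord99. It had 15.2, 17.5 and 11.2 CPM with NETs and 15.5, 14.9 and 15.8 CPM with vehicle. The NETs libraries spread to both sides of the vehicle libraries, with NETs replicate 3 lowest. Its log2 fold change was −0.06 (SE 0.17; 95% interval −0.43 to 0.31; edgeR adjusted p = 0.916). Snhg20 (ENSMUSG00000086859; chromosome 11, 117076008 to 117078955), which holds a scaRNA, a guide RNA of Cajal bodies, had 12.4, 10.5 and 11.7 CPM with NETs and 11.6, 12.2 and 9.76 CPM with vehicle. Its groups overlapped, with a log2 fold change of 0.06 (SE 0.18; 95% interval −0.32 to 0.44; edgeR adjusted p = 0.921).

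**Figure D3:**
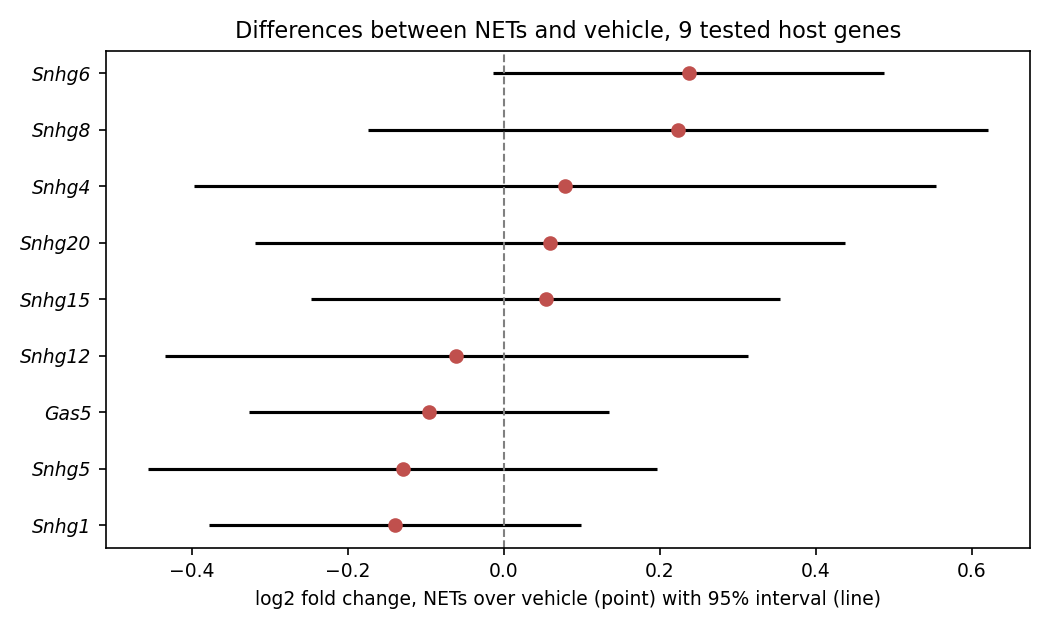
Log2 fold change (x axis, NETs over vehicle) of the 9 tested host genes with its 95% interval from edgeR. All 9 intervals include 0; that of Snhg6 runs from −0.01 to 0.49.

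The 95% intervals give the range of differences that these 3 against 3 libraries leave possible. The upper end was a 1.10-fold level for Gas5, 1.07-fold for Snhg1 and 1.54-fold for Snhg8, and the lower end was 0.729-fold for Snhg5 and 0.740-fold for Snhg12. A change of 1.5-fold in either direction lay outside the interval of 8 of the 9 genes, Snhg8 being the exception.

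The host genes did not vary across libraries as 1 block. NETs replicate 1 held the highest value of 3 host genes (Snhg6, Snhg15 and Snhg20) and the lowest of 4 (Gas5, Snhg1, Snhg4 and Snhg5). Vehicle replicate 2 held the highest value of Gas5, Snhg1 and Snhg5, and vehicle replicate 3 the lowest of Snhg6, Snhg8 and Snhg20. The ratio of the highest to the lowest library was between 1.25 (Snhg4) and 1.60 (Snhg5). The mean of the 9 centred profiles was −0.02, 0.07 and −0.02 log2 units in NETs replicates 1 to 3 and −0.01, 0.09 and −0.10 in vehicle replicates 1 to 3. Genes near that mean profile were sought among 7420 candidates averaging 20 CPM or more by the root mean square difference over the 6 libraries. The nearest were the mismatch repair gene Pms2 (0.0073 log2 units), the ribosomal protein gene Rplp0 (0.021) and Armc10 (0.024). Next came the fatty acid oxidation gene Hadhb (0.024) and the ribosomal protein gene Rpl35 (0.026). The tested host genes themselves lay farther from the mean profile, between 0.115 (Snhg20) and 0.183 (Snhg12). Nearness to the mean is thus not nearness to each host gene. The mean profile was also nearly flat, so any gene that varies little lies near it.

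**Figure D4:**
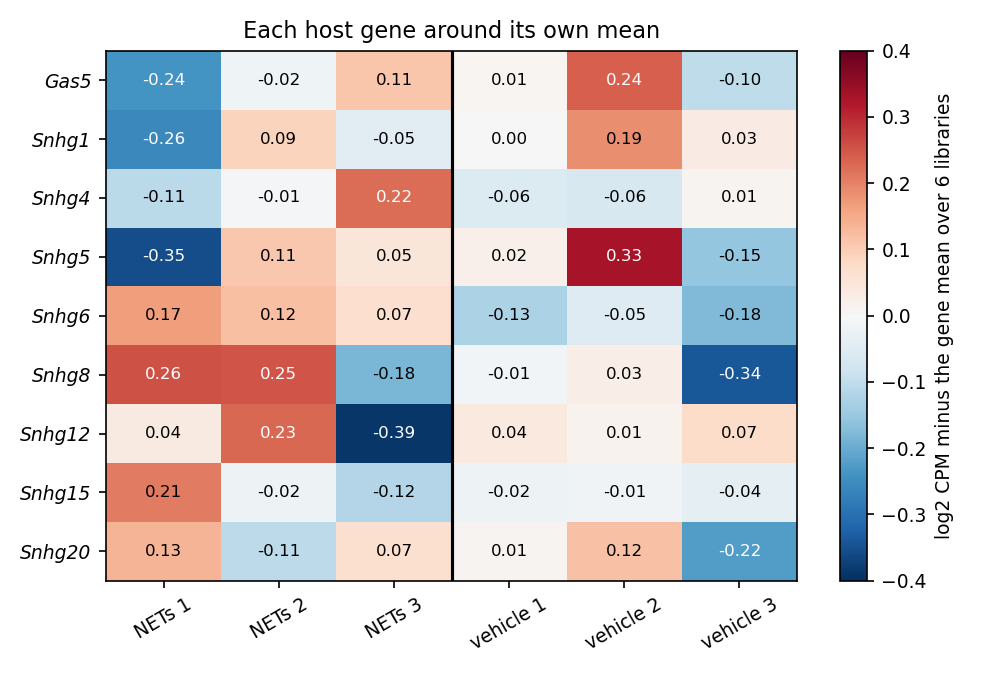
Log2 CPM of each tested host gene minus its mean over the 6 libraries (colour and printed value), with NETs libraries left of the line and vehicle libraries right of it. Gas5, Snhg1 and Snhg5 share their lowest value in NETs replicate 1 and their highest in vehicle replicate 2, while Snhg6 is above its mean in all 3 NETs libraries.

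Genes that make, use or remove host RNAs were read out of the same fit, and edgeR called 0 of them in each list. Of 14 further non-coding host genes 11 were matched and 8 tested, with 4 above 0 and 4 below and a median log2 fold change of 0.0024. The most abundant of these, 2410006H16Rik, averaged 84.1 ± 9.84 CPM with NETs and 97.6 ± 21.9 CPM with vehicle (log2 fold change −0.20), and the lowest p belonged to Snhg14 (−0.90, SE 0.57) on 103 reads in all. Snhg14, 2410006H16Rik and 1110038B12Rik (−0.11) had no unadjusted p under 0.05. These hosts lay on both sides of 0.

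The 30 protein-coding genes that host snoRNAs in their introns were mostly ribosomal protein and translation factor genes. Of them 23 lay above 0, where 50.2% of all genes tested did, and 7 below, with a median log2 fold change of 0.06. At an unadjusted p under 0.05 edgeR gave 1 higher and 1 lower (12.8% of all genes tested had one). The groups did not overlap in 3 (16.7% of all genes tested). Nop56, Nop58 and Dkc1 also belong to the next list. The genes with the smallest p pointed in both directions. Rps2, a protein of the small ribosomal subunit, averaged 1727 ± 234 CPM with NETs and 1332 ± 175 CPM with vehicle (log2 fold change 0.39, SE 0.11). Eif4a2, a translation initiation helicase, averaged 391 ± 33.4 CPM with NETs and 527 ± 94.9 CPM with vehicle (−0.42, SE 0.12), and the mitochondrial chaperone gene Hspa9 stood at 0.26. For Rps2 and Eif4a2 the edgeR adjusted p was 0.223, and neither was called.

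Genes of the proteins that bind and assemble snoRNAs had positive log2 fold changes throughout, although none was called. Of 17 tested genes 17 lay above 0 (50.2% of all genes), with a median log2 fold change of 0.24 against 0.0012 over all genes tested, 7 had an unadjusted p under 0.05 (6.72% of all genes had one and were higher) and 5 had NETs libraries all above the vehicle libraries (7.68% of all genes). The list was drawn up with earlier results of these data known, and its counts are a description. Fbl, the methyltransferase of box C/D particles, averaged 100 ± 8.95 CPM with NETs and 75.4 ± 12.3 CPM with vehicle (log2 fold change 0.42, SE 0.11). Gar1 and Nhp2, core proteins of box H/ACA particles, stood at 0.54 (SE 0.15) and 0.46 (SE 0.14), and all 3 had an edgeR adjusted p of 0.223. The summed level of the 17 genes was 1001, 916 and 879 CPM in the NETs libraries and 755, 702 and 903 CPM in the vehicle libraries. Vehicle replicate 3 lay within the NETs range, and without it the median was 0.37.

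Factors of nonsense-mediated decay, which removes host RNAs, lay on both sides of 0, with 8 of 14 above 0 and a median of 0.10. Smg1, the kinase that acts on Upf1, averaged 315 ± 22.6 CPM with NETs and 401 ± 26.5 CPM with vehicle (log2 fold change −0.33, SE 0.08), and Upf2, which bridges Upf1 to the exon junction complex, stood at −0.31 (SE 0.08). Rbm8a, a protein of that complex, stood at 0.35 (SE 0.10). The edgeR adjusted p was 0.223 for each of the 3 genes. They were picked for the smallest p, and in each the NETs libraries lay all on 1 side of the vehicle libraries. The groups did not overlap in 4 of the 14 genes, where 16.7% of all genes tested had groups apart. Among 13 regulators of mTORC1 and of TOP translation, 8 lay above 0 with a median of 0.04, and 0 had an unadjusted p under 0.05 (12.8% of all genes tested). Those with the smallest p were Rps6kb2 (−0.22), a kinase of ribosomal protein S6, Eif4ebp1 (0.26), the repressor of cap-dependent translation, and Tsc1 (−0.14), an inhibitor of mTORC1.

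Gas5 RNA is known to bind the glucocorticoid receptor in human cells, and so this receptor and its targets were listed too. Of 11 genes 4 lay above 0 and 7 below, with a median of −0.12. At an unadjusted p under 0.05 edgeR gave 2 higher and 2 lower (12.8% of all genes tested had one). The groups did not overlap in 4 (16.7% of all genes tested). The 3 genes with the smallest p are named next and do not show the balance of the list. Il7r, the IL-7 receptor chain, averaged 128 ± 20.7 CPM with NETs and 190 ± 31.1 CPM with vehicle (log2 fold change −0.56, SE 0.14), while Ddit4, a stress-induced inhibitor of mTORC1, stood at 0.34 and Fkbp5, a chaperone of the receptor, at 0.23. The edgeR adjusted p was 0.223 for Il7r and Ddit4 and 0.282 for Fkbp5. Of 12 genes named in work on host RNAs as partners or regulators 11 were tested, with 7 above 0 and a median of 0.05. E2f1, a cell cycle transcription factor, stood at 0.40 (SE 0.16; adjusted p = 0.326), the RNA-binding protein gene Stau1 at −0.16 and Myc at −0.12.

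**Figure D5:**
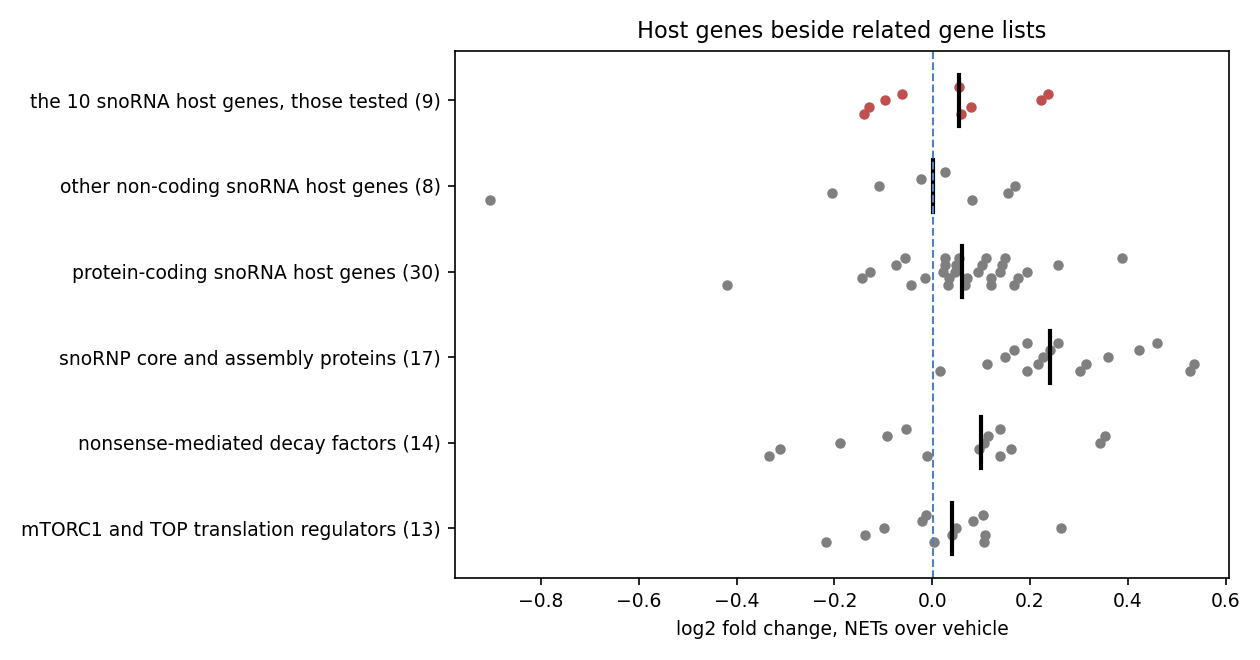
Log2 fold change (x axis, NETs over vehicle) of each tested gene (points) in 6 lists, with the list median (black bar) and the median of all genes tested (dashed line). The host genes lie between −0.14 and 0.24 around a median of 0.05, and the 17 snoRNP genes all lie above 0 with a median of 0.24.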

How the data were processed

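One table of raw counts, with Ensembl identifiers and symbols, was deposited by the authors; the counts of a second deposited table were identical. The submitters' processing notes name STAR, DESeq2 and mm9 without versions, whereas the deposited coordinates of 9 of the 10 host genes equal those of GRCm38 in GENCODE M21, so coordinates are given on GRCm38; that of Snhg4 was not compared. No source used here gives the counting program, annotation or strand use. The authors also deposited FPKM values, used here for levels between genes and for alternatives. The deposited gene length was used only beside the length implied by FPKM. Libraries were grouped by treatment label and numbered by title.

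Counts of genes kept by filterByExpr (13900, with 99.9% of reads) were scaled by TMM and tested with edgeR 4.0.16 (robust quasi-likelihood, two-sided, group only) in R 4.3.3, with Benjamini-Hochberg adjustment over all genes tested. DESeq2 1.42.0 and limma 3.58.1 were alternatives. CPM uses library totals without TMM factors; centred log2 CPM uses TMM factors and a prior count of 2. The standard error is the absolute log2 fold change divided by the root of the F statistic. The fit was tested on simulated data. The floor of 3 counts for a count of 0 covers counting error only. The common biological coefficient of variation was 0.134. The members and lists were chosen with earlier results of these data known. Named genes were all members, snoRNAs with a read, and genes with a read that overlap a member or start within 2000 bases on the other strand. Up to 3 tested genes with the smallest p of each list were also named, except for cell type markers. The 5 genes nearest to the mean host profile were named too. For cell type markers the summed levels are given, with S100a9 and Lyz2, the smallest p of the neutrophil and myeloid lists. Alternatives are given in the closing section.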

Additional observations from a re-analysis of the deposited data

How the results depend on the processing

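The count of host genes called stayed at 0 under all 15 alternatives, among them each library left out in turn, no filter on low counts, DESeq2, limma-voom and limma-trend on log2(FPKM + 1) and log2(FPKM + 0.1); with DESeq2 only 4 of the 9 had an adjusted p, so its 0 covers those 4. Snhg1, Snhg6 and Snhg8 kept their direction under all 15; Snhg1 ranged from −0.22 to −0.050, Snhg8 from 0.12 to 0.35 and Snhg6 from 0.21 to 0.27 (adjusted p from 0.363 to 0.824), with an unadjusted p under 0.05 only by limma-trend on FPKM. Leaving out 1 library turned the direction of 6 genes, whose log2 fold changes then ranged from −0.18 to 0.0040 for Gas5, −0.23 to 0.011 for Snhg5, −0.023 to 0.15 for Snhg4, −0.20 to 0.094 for Snhg12, −0.043 to 0.12 for Snhg15 and −0.030 to 0.13 for Snhg20. The median of the host genes then ranged from −0.030 (without vehicle replicate 3) to 0.080, and was 0.0020 without NETs replicate 1. The log2 ratio of the summed level ranged from −0.10 to 0.013. Over the whole table, edgeR called 0 to 405 genes with 1 library left out, 322 with no filter on low counts, DESeq2 called 145, limma-voom 1 and limma-trend on FPKM 2 at either pseudocount; the cause was not tested.

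The labels do not say whether the shared replicate numbers pair the libraries, and correlations over 3 libraries a group cannot settle it. Same-numbered libraries had correlations of −0.0254, −0.0596 and −0.175 between their deviations from the group means, and a replicate block called 0 genes and 0 host genes, with a host median of 0.05. Of the snoRNP genes, 16 or 17 of 17 lay above 0 under these alternatives, a repeat added after seeing the data, with a median of 0.21 to 0.37. With 3 libraries a group, the median width of the host genes' 95% intervals was 0.65 on the log2 scale. The 2 reads on Snord87 allow no statement on snoRNAs.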

Other observations

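Markers of other cells were scarce. The 2 CD8 T cell markers summed to 13.0 to 19.5 CPM with NETs and 18.4 to 20.8 CPM with vehicle, 5 B cell markers to 13.2 to 19.2 CPM with NETs and 17.6 to 18.3 CPM with vehicle, and 3 NK cell markers to 0.233 to 0.932 CPM with NETs and 0.319 to 0.684 CPM with vehicle.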
